A study of Mus musculus with 6 samples.

Results

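MHC class I antigen processing was followed here through 10 genes in mouse CD8+ T cells: Psmb8, Psmb9, Psmb10, Tap1, Tap2, Tapbp, Erap1, B2m, H2-T23 and Nlrc5. They were chosen by gene symbol, with earlier results of these data known. They are 10 of the 22180 genes that had a probe set of 1 symbol. The brightest such probe set over the 6 arrays stood for each gene. Naive CD8+ T cells sorted from spleen were stimulated with antibodies against CD3 (1 µg/ml) and CD28 (3 µg/ml) for 4 days. The Tc17 cultures, meant to produce IL-17, had IL-6 and TGF-beta for 3 days. The Tc1 cultures, meant to produce interferon-gamma, had IL-12 for the same 3 days, and both had IL-2 for 1 more day. Each group had 2 biological samples and a technical array numbered 2, which was averaged with sample 2, so n = 2 per group. The labels give no strain, age or sex, and do not say whether the samples came from separate animals, so the p-values measure the spread between these samples only. No group without polarising cytokines was analysed here, so a difference between the cultures cannot be assigned to either of them.

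Nearly every nucleated cell shows fragments of its own proteins on MHC class I molecules, which CD8+ T cells read. The proteasome cuts proteins into peptides, and under interferon its 3 constitutive catalytic subunits, encoded by Psmb5, Psmb6 and Psmb7, can be replaced by inducible ones, encoded by Psmb8, Psmb9 and Psmb10, to form the immunoproteasome. The TAP transporter carries the peptides into the endoplasmic reticulum, tapasin holds it next to empty class I molecules, ERAP1 trims the peptides, and beta-2-microglobulin pairs with each heavy chain. T cells are themselves covered in class I molecules, and NLRC5, a transactivator of class I genes, is strongly expressed in lymphocytes.

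Of the 10 genes, 6 lie on chromosome 17, in or beside the MHC, and 2 of those, Tap1 and Psmb9, are transcribed in opposite directions from a shared stretch. The promoter stretches printed below all hold motif matches, and B2m among them lies on chromosome 2. RefSeq windows of GRCm38.p6 (250 bases before to 50 after each start) matched 8 of the 10 genes; Tap2 and Nlrc5 had no match. The sequences below run 5′ to 3′ on the strand of the gene, for the shared stretch the strand of Tap1. The shared stretch (plus strand, chr17:34187331-34187555) covers the 225 bases between the 2 starts. The others end at the base before the start and cover 150 bases: B2m (chr2:122147537-122147686, plus strand) and H2-T23 (chr17:36032702-36032851, minus strand). Capitals mark letters that match any of 4 motifs on either strand.
Tap1 and Psmb9: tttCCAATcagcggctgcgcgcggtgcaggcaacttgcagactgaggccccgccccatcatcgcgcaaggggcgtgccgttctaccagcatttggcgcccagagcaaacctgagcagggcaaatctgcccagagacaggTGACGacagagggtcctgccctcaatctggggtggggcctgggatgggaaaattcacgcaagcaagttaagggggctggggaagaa
B2m: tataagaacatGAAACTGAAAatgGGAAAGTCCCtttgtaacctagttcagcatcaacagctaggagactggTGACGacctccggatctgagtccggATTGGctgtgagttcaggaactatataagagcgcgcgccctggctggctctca
H2-T23: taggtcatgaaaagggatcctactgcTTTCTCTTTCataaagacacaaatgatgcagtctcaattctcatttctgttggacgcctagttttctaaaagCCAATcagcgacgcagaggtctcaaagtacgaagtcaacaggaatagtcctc

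The motifs searched were TGACG, the core of the X2 element of class I promoters, ATTGG, their Y box, the interferon regulatory factor core (GAAA, any 2 bases, GAAA) and an NF-kappaB site (GGGA, any base, TTTCC). None overlaps another in the stretches shown. Of the 8 member windows, 5 held ATTGG (B2m, Tapbp, Psmb9, Tap1 and H2-T23) and 3 held TGACG (B2m, Psmb9 and Tap1), against 37.4% and 20.8% of all 32851 windows. The windows of Tap1 and Psmb9 overlap, so the same letters were counted for both. The interferon regulatory factor core was found in 3 windows (B2m, Erap1 and H2-T23), against 3.44% of all windows. The NF-kappaB site was found in B2m, against 0.411% of all. The windows of Psmb8 and Psmb10 held none of the 4 motifs, and those of Tapbp and Erap1 are not printed. A match describes these letters and does not show binding.

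All 10 genes had lower mean intensities in Tc17 than in Tc1 cells, and 3 of them passed the test. Nlrc5, Tap1 and Psmb9 fell, at 2.59-fold, 2.12-fold and 1.88-fold lower intensity in Tc17. The 3 calls compare with 0.591% of all 22180 genes called lower in Tc17 and 0.992% called higher, 1.58% in all (limma moderated test at an adjusted p of 0.05, with 1.01% of all 41345 probe sets called). In all 10 the 3 Tc17 arrays lay below the 3 Tc1 arrays, a separation in that direction found for 14.5% of all genes. The median log2 difference of the 10 genes was −0.51, beside −0.01 over all genes. An unadjusted p under 0.05 was found for 9 of the 10, and for 6.79% of all genes in that direction (15.9% in either direction). Of all genes, 54.2% had a difference below 0. Because the 10 genes were chosen with earlier results of these data known, these shares are a description and not a test. When any 1 of the 4 biological samples was left out (Tc17 sample 1, Tc17 sample 2, Tc1 sample 1 or Tc1 sample 2), limma called 0 of the 10, 9 had an unadjusted p under 0.05, and all 10 differences stayed below 0.

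**Figure D1:**
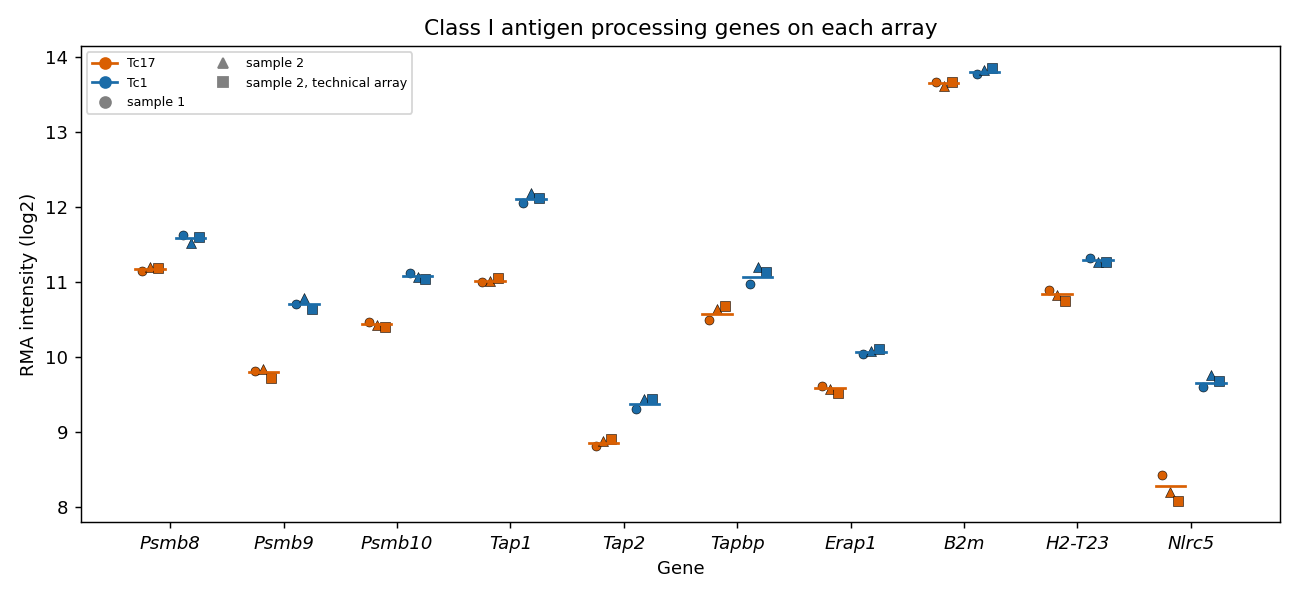
RMA intensity (log2, vertical axis) of the 10 genes on the 3 Tc17 and 3 Tc1 arrays, with a marker per array and a line at the mean of the 2 samples of a group. For each gene the Tc17 arrays lie below the Tc1 arrays, closest together for B2m (0.10 between the nearest arrays) and farthest apart for Nlrc5 (1.17).

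NLRC5 enters the nucleus and drives class I, B2m, Tap1 and Psmb9 transcription together with the RFX factors. Nlrc5 measured 8.43, 8.20 and 8.09 on the Tc17 arrays of sample 1, sample 2 and the technical array, against 9.60, 9.76 and 9.68 on the Tc1 arrays in the same order. No arrays overlapped, and Tc17 sample 1 was above both other Tc17 arrays. This gave means of 8.29 ± 0.21 in Tc17 and 9.66 ± 0.09 in Tc1 (log2, SD, n = 2 each). The log2 difference was −1.37 ± 0.13 (SE, limma adjusted p = 0.0287), the largest in size among the 10 genes and also the one with the widest spread over Tc17 arrays, 0.35.

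Next in size among the 10 genes was the difference of Tap1. Tap1 encodes 1 chain of the peptide transporter and measured 11.01, 11.02 and 11.05 on the Tc17 arrays, against 12.05, 12.19 and 12.12 on the Tc1 arrays. The Tc17 arrays spanned only 0.04, the narrowest range of the 10 genes. The log2 difference was −1.08 ± 0.08 (SE, limma adjusted p = 0.0175). Tap2 encodes the partner chain, without which TAP1 does not transport, and measured 8.81, 8.89 and 8.90 on the Tc17 arrays, against 9.32, 9.45 and 9.45 on the Tc1 arrays. Its arrays did not overlap either, but its difference of −0.53 on the log2 scale (95% interval −0.76 to −0.30) missed the threshold (limma adjusted p = 0.103). The intervals of Tap1 (−1.29 to −0.87) and Tap2 do not overlap; the difference between the 2 genes was not tested.

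Among the inducible proteasome subunits 1 of 3 passed. Psmb9 (LMP2, the inducible partner of Psmb6) measured 9.82, 9.84 and 9.72 on the Tc17 arrays, against 10.70, 10.78 and 10.64 on the Tc1 arrays, and fell by 0.91 ± 0.07 on the log2 scale (SE, limma adjusted p = 0.0207). Psmb10 (MECL-1, the partner of Psmb7) measured 10.47, 10.43 and 10.41 on the Tc17 arrays, against 11.12, 11.07 and 11.04 on the Tc1 arrays. Its log2 difference of −0.64 (95% interval −0.84 to −0.44) missed the threshold narrowly (limma adjusted p = 0.052). Psmb8 (LMP7, the partner of Psmb5) measured 11.15, 11.21 and 11.19 on the Tc17 arrays, against 11.62, 11.53 and 11.60 on the Tc1 arrays, a difference of −0.42 (95% interval −0.62 to −0.22, limma adjusted p = 0.121). For all 3 subunits the gap between the groups was wider than the spread of arrays within either group.

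None of the 3 constitutive catalytic subunits passed, with 1 unadjusted p under 0.05 in limma. Psmb5 had a log2 difference of −0.02 (95% interval −0.23 to 0.19), whose sign turned under other settings, and its arrays overlapped. Psmb6 and Psmb7 had differences of −0.29 (95% interval −0.57 to −0.0043) and −0.17 (95% interval −0.36 to 0.02). For both, the 3 Tc17 arrays lay below the 3 Tc1 arrays. The same separation was found for 4 of 10 other 20S subunits and for 14.5% of all genes. The interval of Psmb9 lay wholly below that of Psmb6 and the interval of Psmb10 wholly below that of Psmb7, and those of Psmb8 and Psmb5 overlapped at their ends. The differences between partners were not tested.

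**Figure D2:**
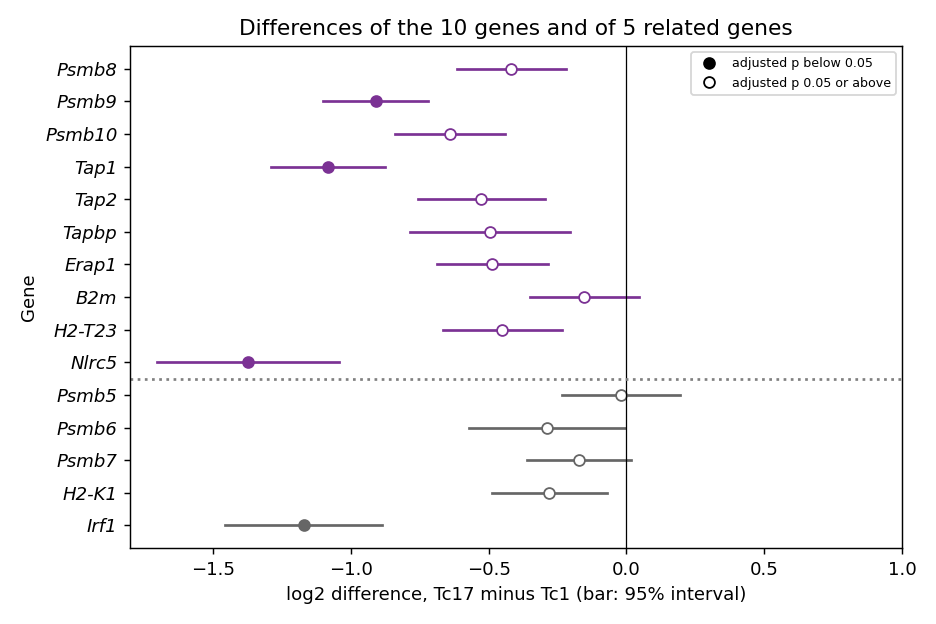
Log2 difference, Tc17 minus Tc1 (horizontal axis), with its 95% interval from limma for the 10 genes (above the dotted line) and 5 related genes. Of the 10 genes, 9 have intervals wholly below 0, the interval of B2m reaches 0.05, and filled circles mark an adjusted p below 0.05.

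The remaining members act at peptide trimming and on the class I molecule itself, and none of these 4 passed. Erap1, the trimming aminopeptidase of the endoplasmic reticulum, measured 9.62, 9.58 and 9.52 on the Tc17 arrays, against 10.04, 10.09 and 10.11 on the Tc1 arrays (log2 difference −0.49, limma adjusted p = 0.0926). Tapbp, which encodes tapasin, measured 10.49, 10.64 and 10.69 on the Tc17 arrays, against 10.98, 11.20 and 11.14 on the Tc1 arrays (log2 difference −0.50, limma adjusted p = 0.173). In both groups its sample 1 lay below both arrays of sample 2. A dimmer Tapbp probe set, with a mean of 6.92 in Tc17 and 7.03 in Tc1, had overlapping arrays and a difference of −0.11.

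H2-T23 encodes Qa-1, a non-classical class I molecule that shows signal peptides of other class I molecules to the NKG2A receptor. It measured 10.90, 10.83 and 10.76 on the Tc17 arrays, against 11.32, 11.27 and 11.26 on the Tc1 arrays (log2 difference −0.45, limma adjusted p = 0.124). B2m, the shared light chain, measured 13.67, 13.62 and 13.67 on the Tc17 arrays, against 13.77, 13.83 and 13.86 on the Tc1 arrays. Its log2 difference of −0.15 (95% interval −0.35 to 0.05, limma adjusted p = 0.5) was the smallest of the 10. Its window held all 4 motifs, and the stretch shared by Tap1 and Psmb9 held 2. Whether motif matches bear on the differences was not tested. The highest value of any probe set was between 13.89 and 13.96 on the arrays, and whether this nearness limits the difference of B2m was not tested.

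Psmb9, Tap1, Psmb8 and Tap2 are consecutive protein-coding genes in the RefSeq order of chromosome 17, inside the class II region. The stretch from H2-K1 to H2-Eb1 holds 19 protein-coding genes, all measured. The 15 others had log2 differences from −0.28 to 0.52 with a median of 0.03, and limma called 0 of them, with 3 at an unadjusted p under 0.05. On either side of the 4 genes, H2-DMb1, which encodes a chain of the class II peptide editor, had a difference of −0.16 and H2-Ob, which encodes a chain of the regulator of that editor, a difference of −0.09. Tapbp and H2-T23 lie elsewhere on the same chromosome, B2m on chromosome 2, Psmb10 and Nlrc5 on chromosome 8 and Erap1 on chromosome 13.

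**Figure D3:**
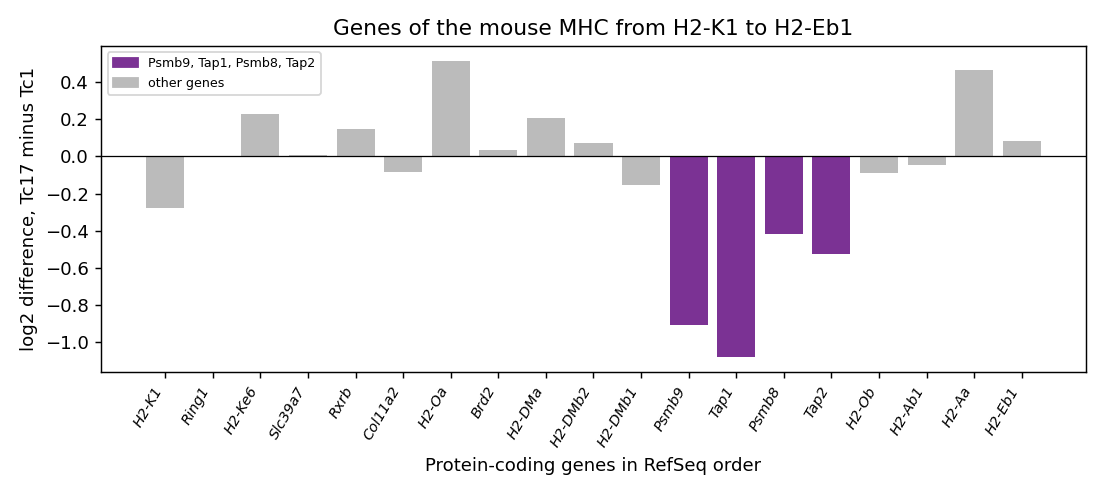
Log2 difference, Tc17 minus Tc1 (vertical axis), of the 19 protein-coding genes from H2-K1 to H2-Eb1 in RefSeq order. Psmb9, Tap1, Psmb8 and Tap2 lie between −1.08 and −0.42, and the 15 others between −0.28 and 0.52.

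The class I heavy chains were only in part measurable. H2-K1, a classical heavy chain, measured 12.56, 12.50 and 12.61 on the Tc17 arrays, against 12.78, 12.87 and 12.91 on the Tc1 arrays. The arrays did not overlap, and the difference of −0.28 missed the threshold (limma adjusted p = 0.257). H2-D1 shares its probe set with H2-Q2 and was not named, and H2-L was not analysed here. Of 11 measured non-classical and class I-like genes, H2-T10 fell and none rose (6 at an unadjusted p under 0.05 in limma), with a median log2 difference of −0.19. The 6 were H2-T10, H2-T24, H2-Q4 (log2 difference −1.05), H2-Q10 (−0.47), H2-M3 (−0.34) and Hfe. The arrays of H2-Q10 overlapped between the groups, and it measured 11.13 on the array of Tc1 sample 2 but 11.73 on the Tc1 technical array. Hfe went the other way, at 0.64, with the Tc17 arrays above the Tc1 arrays. H2-T10, a non-classical molecule bound by some gamma-delta T cell receptors, measured 7.32, 7.33 and 7.31 on the Tc17 arrays, against 8.36, 8.64 and 8.77 on the Tc1 arrays (log2 difference −1.21, limma adjusted p = 0.0429). It did not pass when any 1 of the 4 samples was left out (adjusted p from 0.0632 to 0.22).

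H2-T24, at −1.35 on the log2 scale, missed the threshold (limma adjusted p = 0.0932). For H2-M2 the Tc17 samples differed, with 6.85 in sample 1 but 5.36 and 5.33 for sample 2, against 5.09, 5.02 and 4.97 on the Tc1 arrays. Its difference of 1.06 missed the threshold too (limma adjusted p = 0.483). Without Tc17 sample 1 the difference was 0.30 (limma adjusted p = 0.616), and without Tc17 sample 2, which leaves the higher sample alone, it was 1.81 (limma adjusted p = 0.0444). Class I heavy chains are alike in sequence, so the probe sets of H2-T23, H2-K1, H2-T10, H2-T24, H2-Q4, H2-Q10 and H2-M3 may take up signal from each other or from relatives. Their separate values are uncertain.

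The general machinery around the pathway did not pass the test in any list. None of 8 peptide loading chaperones passed (0 at an unadjusted p under 0.05 in limma), with a median log2 difference of 0.03. Hspa5, the chaperone BiP, and Sec61a1, a chain of the translocation channel, had the largest differences, 0.18 and 0.16, which ran from 0.07 to 0.29 and from 0.10 to 0.23 with a sample left out. None of 9 proteasome activator and assembly genes passed (2 at an unadjusted p under 0.05), with a median of −0.10. Psmg1, an assembly chaperone, had a difference of 0.29 and Psme1, a subunit of the interferon-inducible PA28 activator, a difference of −0.26.

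The structural proteasome was measured with many probe sets. None of 10 other subunits of the 20S core passed (3 at an unadjusted p under 0.05), with a median of −0.17 and 9 differences below 0, among them Psma2 and Psma3 with −0.27 and −0.26 (Psma2 −0.16 without Tc1 sample 1). None of 17 subunits of the 19S cap passed (1 at an unadjusted p under 0.05), with a median of −0.05, and the differences of largest size were those of Psmd13 (−0.34) and Psmc1 (−0.16). Psmc1 had −0.0036 without Tc1 sample 1 and −0.32 without Tc1 sample 2. None of 6 cytosolic and other trimming peptidases passed (2 at an unadjusted p under 0.05). Blmh (bleomycin hydrolase) and Tpp2 (tripeptidyl peptidase II) had differences of −0.34 and −0.28, and the median was 0.03. None of 8 MHC class II pathway genes passed (2 at an unadjusted p under 0.05), with a median of 0.08 and the largest differences for H2-Oa (0.52) and H2-Aa (0.47). H2-Aa had 0.11 without Tc17 sample 1 and 0.83 without Tc17 sample 2. Whether the 10 antigen processing genes differ from these lists was not tested.

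**Figure D4:**
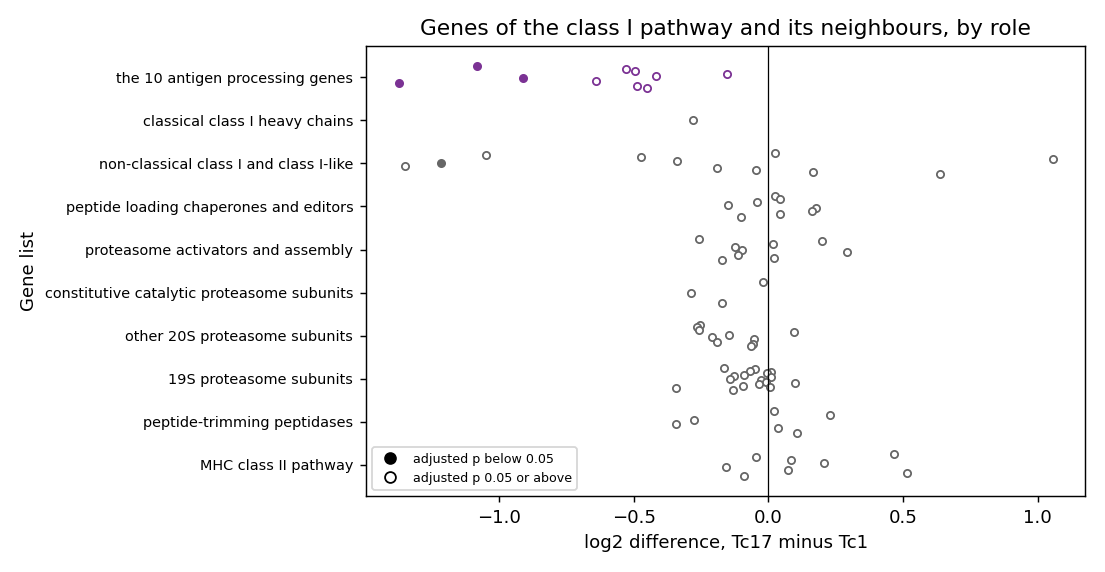
Log2 difference, Tc17 minus Tc1 (horizontal axis), of each measured gene, by list, with filled circles for an adjusted p below 0.05. Median differences are −0.51 for the 10 antigen processing genes, −0.28 for H2-K1 alone, −0.19 for the non-classical genes and 0.03 for the loading chaperones. They are −0.10 for the proteasome activators and assembly, −0.17 for the constitutive catalytic subunits and −0.17 for the other 20S subunits. They are −0.05 for the 19S cap, 0.03 for the trimming peptidases and 0.08 for the class II pathway.

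Regulators of class I genes were read from the same fit. Irf1, an interferon-induced transcription factor that activates Tap1 and Psmb9, fell. It measured 8.33, 8.46 and 8.58 on the Tc17 arrays, against 9.52, 9.66 and 9.70 on the Tc1 arrays (log2 difference −1.17 ± 0.11 SE, limma adjusted p = 0.0296, and 0.0942 to 0.148 when each sample was left out in turn). It was the 1 call among 15 measured regulators, whose median was −0.06. Rfx5, the DNA-binding partner of NLRC5 at class I promoters, had a difference of 0.06 (95% interval −0.13 to 0.25). Prdm1, which encodes the repressor BLIMP-1, had a difference of −2.38 and Creb1, which encodes a factor that binds TGACG, a difference of −0.50, and neither passed (limma adjusted p = 0.0621 and 0.352). Prdm1 passed among probe sets above the median level (adjusted p = 0.0334), and Creb1 ran from −0.69 to −0.32 with a sample left out.

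In the interferon-gamma pathway 1 of 6 genes fell and 1 rose. Ifng, which encodes interferon-gamma, measured 7.79, 7.11 and 7.34 on the Tc17 arrays, against 13.18, 12.79 and 12.86 on the Tc1 arrays. Ifngr2, which encodes the signalling chain of the interferon-gamma receptor, measured 11.14, 11.27 and 11.28 on the Tc17 arrays, against 7.41, 6.91 and 7.10 on the Tc1 arrays. The ligand-binding chain Ifngr1 had a log2 difference of −0.16 and the feedback inhibitor Socs1 a difference of 0.60 (limma adjusted p = 0.642 and 0.145), and Ifngr1 ran from −0.27 to −0.05 with a sample left out. The kinase gene Jak2 had a difference of 0.36 (limma adjusted p = 0.292), and 0.23 without Tc1 sample 1. Whether Ifng moves the 10 genes here was not tested.

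By their values over the 6 arrays, the genes most like the mean of the 10 antigen processing genes were Ms4a4b, Aagab, Anxa6, Dgkh and Hrh2. Pearson's r was 0.999 for each over the 6 arrays, which share 4 samples and 2 culture conditions. An r above 0.99 was reached by 89 of 22170 other genes, so this describes the split between the cultures. Their log2 differences ran from −0.58 (Anxa6) to −3.74 (Ms4a4b).

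The cells carried the CD8+ T cell genes of their label. None of 6 T cell markers passed (1 at an unadjusted p under 0.05 in limma): Cd8a averaged 12.78 ± 0.04 in Tc17 and 12.91 ± 0.04 in Tc1 (log2, SD, n = 2 each), and Cd2 had a difference of 0.44. Cd4 averaged 6.99 in Tc17 and 7.05 in Tc1, and Zbtb7b, the CD4 lineage factor, had a difference of −0.13. Of 6 macrophage and monocyte markers Lyz2 rose, averaging 8.97 in Tc17 and 5.44 in Tc1, although it did not pass without Tc1 sample 2 (limma adjusted p = 0.055). In the same list 4 markers had an unadjusted p under 0.05 and Tc17 arrays above all Tc1 arrays. Besides Lyz2 these were Adgre1, with means of 5.23 in Tc17 and 4.85 in Tc1, Csf1r (6.56 in Tc17 and 6.28 in Tc1) and Cd14 (5.39 in Tc17 and 5.14 in Tc1). Cd68, with means of 9.85 in Tc17 and 9.99 in Tc1, and Itgam (6.48 in Tc17 and 6.39 in Tc1) had overlapping arrays. The mean log2 level of the 6 ran from 6.97 to 7.18 on the Tc17 arrays and from 6.26 to 6.50 on the Tc1 arrays. Lyz2 had a log2 difference of 3.53, and the rest of the list ran from −0.14 (Cd68) to 0.38 (Adgre1), so Lyz2 adds the most to the gap in this mean. The summed linear intensity of the 6 ran from 1578 to 1803 on the Tc17 arrays and from 1091 to 1556 on the Tc1 arrays, and 2 of them were dimmer than each array's median in Tc17 and in Tc1. None of 4 B cell, 5 dendritic cell and 3 NK cell markers passed (1, 0 and 1 at an unadjusted p under 0.05). Cd79b had a difference of 0.52 and Ms4a1 of −0.06. Itgax had 0.40 (0.13 without Tc17 sample 1) and Siglech 0.10, and Klre1 had 0.43 and Klrb1c 0.04. Dimmer than each array's median in Tc17 and in Tc1 were 1 of the 4 B cell, 4 of the 5 dendritic cell and all 3 NK cell markers. Cd79b was bright, averaging 10.32 in Tc17 and 9.80 in Tc1, while Ms4a1 averaged 4.21 in Tc17 and 4.26 in Tc1. The part of these markers in the results was not tested. In whole cultures, fewer cells expressing a gene and less RNA per cell cannot be told apart.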

How the data were processed

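The authors deposited log2 intensities. RMA and Partek are named, without versions, in the submitters' processing notes. RMA corrects background, normalizes by quantiles and summarises probes, so differences are relative to all probe sets, and no detection call was given. The genome build was not given in the sources used here. The array medians lay between 6.04 and 6.09, and the number of arrays limits the precision.

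Group means of 2 samples (technical array averaged with sample 2) were compared by lmFit and eBayes of limma (version 3.58.1, run in R 4.3.3) on 2 residual degrees of freedom. Calls were made at 0.05 after Benjamini-Hochberg adjustment across the 41345 probe sets. The procedure was tested on simulated data. Platform annotation named 23521 probe sets with 1 symbol, 1814 with several and 16010 with none. All 10 members were named. From each other list, up to 4 called genes and the 2 uncalled genes with the largest differences were named, plus the constitutive catalytic subunits, classical heavy chains, Irf1, Rfx5, Ifng, Ifngr1, Ifngr2 and Socs1 whatever their values, and the 5 genes most like the members. H2-DMb1, H2-Ob, H2-Q4, H2-Q10, H2-M3, Hfe, Cd14, Cd68, Itgam and the dim Tapbp probe set were named after their values were seen. Members and lists were chosen with earlier results of these data known. A planned comparison of protein sequences was not made. A planned motif is not reported here. Tables and figures used pandas 2.3.3 and matplotlib 3.10.9. Alternatives concerned the technical array, replicate number, normalization, level filter, moderation, samples left out and the probe set of a gene.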

Additional observations from a re-analysis of the deposited data

How the results depend on the processing

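All 10 antigen processing genes kept a difference below 0 under all 14 alternatives. Of the 10, 3 passed after quantile normalization, median centring, eBayes with trend or robust settings, without the technical arrays or when probe sets of 1 gene were averaged, and 4 passed (Psmb10 added) among probe sets above the median level. With the 6 arrays as separate samples 9 passed, and with the biological sample as a random block 9. With any 1 sample left out 0 passed in limma (9 at an unadjusted p under 0.05), in fits with 1 degree of freedom, with the lone sample of a group assumed to vary like the other group. Over all probe sets 418 were called, against 2318 with 6 separate arrays, 2074 with the random block, 648 with the level filter and 48 to 125 with a sample left out. The labels do not say that replicate numbers pair the samples. The deviations of same-numbered samples had a correlation of 0.31, and with the replicate number as a block 6 of the 10 genes and 1535 probe sets passed.

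Of 41 other named genes, 17 had differences that moved by over 1.5 times when a sample was left out, none of them called with all samples. Passes gained were 9 with 6 separate arrays, 8 with the random block, 4 with the replicate number as a block (H2-T24, Prdm1, Creb1 and Cd79b), 1 with the level filter (Prdm1) and 1 without Tc17 sample 2 (H2-M2). Signs turned for 4 that did not pass. Psmb5 had log2 differences of 0.014 without the technical arrays, 0.0053 after quantile normalization and −0.067 to 0.028 with a sample left out. Ms4a1 had 0.022 and Klrb1c −0.041 without the technical arrays. With a sample left out Cd4 ran from −0.25 to 0.13 and Klrb1c from −0.0011 to 0.091. Lyz2 did not pass without Tc1 sample 2 (adjusted p = 0.055). The 2 samples per group limit which differences could be called.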
